A study of Mus musculus with 6 samples.

Results

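Cohesin and condensin are ring-shaped protein complexes that hold and fold chromosomes, and the messenger RNA of 10 of their subunits was followed here in mouse embryonic stem (ES) cells with and without Zscan5b (zinc finger and SCAN domain containing 5B). The subunits are Smc1a, Smc3, Rad21, Stag1 and Stag2 of cohesin, and Smc2, Smc4, Ncapd2, Ncapg and Ncaph of condensin I. They were found by gene name among the gene probes of the array, which gave 11 of 39429 probes, 6 for cohesin and 5 for condensin, with 2 probes for Stag1 and 1 for each other gene. All 11 probes were well above background on all 6 arrays, and none was saturated.

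The series compares Zscan5b knockout ES cells (3 arrays) with wild type ES cells (3 arrays). Both genotypes were kept undifferentiated with leukemia inhibitory factor on mouse embryonic fibroblasts that mitomycin C had stopped from dividing, so RNA of feeder cells can be present in every sample. Neither the position of the deletion, nor whether the knockout replicates are separate clones, nor the strain of the lines is stated. Cy3-labelled total RNA of each sample was read on 1 Agilent array of 1 colour. The submitters call the replicates biological without saying whether they were separate cultures, so p-values measure the spread between these samples and may not cover that between lines.

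In cohesin and condensin, a pair of long SMC ATPases is joined by a kleisin subunit, and large repeat proteins dock on the kleisin. Cohesin, with Smc1a, Smc3 and the kleisin Rad21, extrudes chromatin loops in interphase and holds sister chromatids together until anaphase. It carries either Stag1 or Stag2. Condensin I, with Smc2, Smc4, the kleisin Ncaph and the repeat proteins Ncapd2 and Ncapg, compacts chromosomes in mitosis.

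Many genes used in mitosis carry a short promoter element, the cell cycle homology region with the core TTTGAA, to which repressing and activating complexes of the cell cycle bind. Promoter sequences of RefSeq on build GRCm38.p6 were at hand for 7 of the 10 subunits, 3 of cohesin and 4 of condensin, and Rad21, Stag2 and Smc4 had no entry in the table used. The 250 bases before the annotated start were searched on both strands for TTTGAA, for CCAAT and for TTCCCGC, an E2F-type sequence. TTTGAA stood in 3 of the 7 promoters, all of them of condensin genes (Smc2, Ncapd2 and Ncapg), and in 16.27% of 27025 promoters of the same length. Its first base lay 145 bases before the start in Smc2, 123 in Ncapd2 and 30 in Ncapg. CCAAT stood in 5 of the 7 (Smc1a, Stag1, Smc2, Ncapd2 and Ncapg) and in 34.46% of all promoters, and TTCCCGC in 1, that of Stag1, and in 3.837% of all. These are matches of letters and not measured binding. No 2 matches overlapped in the promoters printed here. The 3 condensin promoters with TTTGAA are printed 5′ to 3′ with that element in capitals (TTCAAA where it lies on the other strand), beside that of Stag1, a cohesin gene whose brighter probe kept the groups apart, with TTCCCGC in capitals.
Smc2 (chr4:52438971-52439220, plus strand): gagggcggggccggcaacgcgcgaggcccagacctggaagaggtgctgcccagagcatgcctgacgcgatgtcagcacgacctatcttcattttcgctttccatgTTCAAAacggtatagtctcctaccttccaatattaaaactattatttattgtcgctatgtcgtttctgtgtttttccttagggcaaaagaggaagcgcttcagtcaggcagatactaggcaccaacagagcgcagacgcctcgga
Ncapd2 (chr6:125191587-125191836, minus strand): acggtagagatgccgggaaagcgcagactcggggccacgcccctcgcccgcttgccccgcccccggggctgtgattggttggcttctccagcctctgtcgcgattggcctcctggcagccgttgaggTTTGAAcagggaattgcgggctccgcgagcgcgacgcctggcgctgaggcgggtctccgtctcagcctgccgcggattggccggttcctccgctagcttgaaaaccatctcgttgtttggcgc
Ncapg (chr5:45669675-45669924, plus strand): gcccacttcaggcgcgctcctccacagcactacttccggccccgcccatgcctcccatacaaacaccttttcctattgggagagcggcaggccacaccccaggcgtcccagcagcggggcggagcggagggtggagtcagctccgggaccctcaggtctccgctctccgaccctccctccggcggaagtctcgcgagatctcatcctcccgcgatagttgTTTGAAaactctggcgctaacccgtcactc
Stag1 (chr9:100643198-100643447, plus strand): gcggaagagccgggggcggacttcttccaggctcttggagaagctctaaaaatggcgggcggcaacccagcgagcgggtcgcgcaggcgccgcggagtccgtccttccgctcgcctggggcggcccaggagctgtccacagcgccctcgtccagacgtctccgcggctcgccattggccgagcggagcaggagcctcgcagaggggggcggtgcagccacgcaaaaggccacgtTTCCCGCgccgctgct

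The arrays and the groups set the limits of what follows. Signals are given on the log2 scale, as the processed signal over the 75th percentile of its array, which lay between 852 and 1028, so that 0 is the level of a probe at that percentile. Per array 25360 to 27737 gene probes were well above background, and 26645 probes were tested. Each genotype lay on a slide and in a scan of its own, so slide, scan and genotype cannot be told apart in any difference given here. Zscan5b read -4.47, -5.17 and -5.13 in the knockout, against -3.66, -4.03 and -3.12 in wild type. All 3 knockout arrays were lower, as for 15.4% of all tested probes. In linear units this dim probe read 25 to 46.3 in the knockout and 52.2 to 107.5 in wild type, well above background on every array. The fitted log2 change was -1.32 ± 0.29 (SE, n = 3 arrays a group), and the limma adjusted p of 0.107 did not reach the threshold. A probe outside the deleted part would not check the genotype. The change passed without wild type replicate 2 (-1.54, adjusted p 0.0416) and with array weights (-1.58, adjusted p 0.0393), was -0.59 under normexp background correction (adjusted p 0.108), and had an adjusted p of up to 0.346 over the leave-one-out fits. All 10 ES cell markers examined, Pou5f1, Sox2 and Nanog among them, were well above background on all 6 arrays. By the brightest probe of each, 5 fitted changes were positive and 5 negative, and 0 were called by limma (0.465% of all tested probes). At an unadjusted limma p below 0.05, 1 was higher (Nanog, 0.66) and 1 lower (Pou5f1, -0.47). Of all tested probes 10.6% were higher and 11.3% lower at that threshold.

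None of the 10 subunit genes was called different between the genotypes. Of the 11 probes 0 passed the limma test at an adjusted p below 0.05 over all tested probes, where 0.465% of them did (0.124% higher and 0.342% lower), and 0 had an unadjusted p below 0.05, against 21.9% of all tested probes. Fitted log2 fold changes, knockout minus wild type, ran from -0.16 (Stag1) to 0.12 (Ncaph), and adjusted p from 0.388 to 0.976. By the brightest probe of each gene, 8 were positive and 2 negative, with a median of 0.059, against a median of -0.011 over all tested probes. The median was 0.0044 when arrays were shifted to the median of the tested probes, 0.18 after quantile normalization, and -0.0080 without wild type replicate 3. No direction can be given for the family on that footing.

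The intervals were narrow. Over the 11 probes, the 95% intervals of the fold change, knockout over wild type, lay between 0.746 and 1.338, so a 2-fold change in either direction was outside every one of them. These intervals rest on the spread between the arrays alone and do not cover a shift between slides or a change of scaling. With arrays scaled by percentile, the median absolute log2 fold change of the 10 genes was 0.068. It was 0.22 over all tested probes and 0.18 over the tested probes brighter than the median. A larger absolute value than the 0.16 of Stag1 was fitted for 61.7% of all tested probes and 53.5% of those brighter ones. The size of the subunit changes depended on the scaling. Under quantile normalization the 10 genes ran from -0.13 to 0.25, with a median of 0.18. Under a shift to the median they ran from -0.22 to 0.066. The contrast with all tested probes is thus given for the percentile scaling only.

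**Figure D1:**
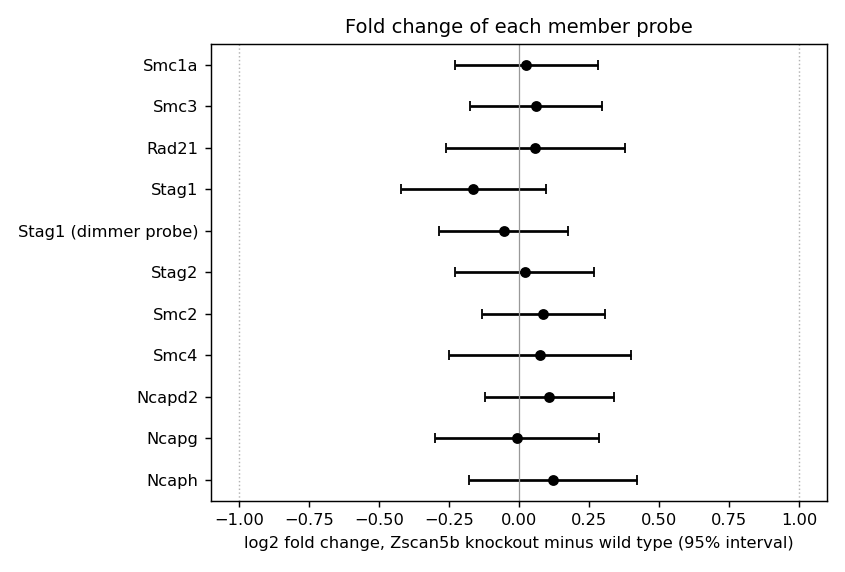
Fitted log2 fold change, Zscan5b knockout minus wild type, of each cohesin and condensin probe (points) with its 95% interval from limma (bars, n = 3 arrays per group), and dotted lines at -1 and 1. Every interval crosses 0, and all lie between -0.42 and 0.42.

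The SMC ATPases of cohesin, which form the ring and close it at their ATP-binding heads, did not differ between the groups by the test. Smc1a (mm9 chromosome X, 148496427 to 148496486) read 3.57, 3.49 and 3.52 in the knockout, against 3.63, 3.48 and 3.39 in wild type. The knockout values fell inside the wild type range. Its log2 fold change was 0.026 ± 0.105 (SE, adjusted p 0.901 in limma), with a 95% interval from -0.23 to 0.28. Smc3 (chromosome 19, 53719568 to 53719627), the partner of Smc1a and the subunit that is acetylated when cohesion is made, read 4.14, 4.02 and 4.03 in the knockout, against 4.08, 3.98 and 3.95 in wild type. Knockout replicate 1 was the highest array and the groups overlapped. The fitted change of Smc3 was 0.060 ± 0.097, with an interval from -0.18 to 0.30.

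Rad21, the kleisin that separase cleaves at anaphase, varied more in wild type than in the knockout, as did 72.8% of all tested probes. Its probe (chromosome 15, 51794326 to 51794385) read 4.46, 4.37 and 4.38 in the knockout, against 4.41, 4.52 and 4.11 in wild type. All knockout arrays fell between the extremes of wild type, where replicate 2 was the highest and replicate 3 the lowest of all 6. The SD was 0.044 in the knockout and 0.21 in wild type (n = 3 each), and the log2 fold change was 0.057 ± 0.132 (SE). Without wild type replicate 3 it was -0.060 (adjusted p 0.786). A further probe, described in the files as a Rad21 protein fragment and placed on chromosome 1 (194715237 to 194715296), carries the name TC1573766 and was not counted as a subunit probe. That probe read 7.80, 7.95 and 7.77 in the knockout, against 8.10, 8.11 and 7.98 in wild type. The knockout arrays lay below the wild type arrays, as for 15.4% of all tested probes. Its log2 fold change was -0.22 ± 0.10 (SE), with a limma adjusted p of 0.269.

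Stag1 and Stag2 are alternative subunits of cohesin that help to place it on chromatin, Stag1 with a known part at telomeres and Stag2 at centromeres. The brighter Stag1 probe (chromosome 9, 100858787 to 100858846) read 0.93, 0.90 and 0.97 in the knockout, against 1.02, 1.25 and 1.03 in wild type. All knockout arrays lay below all wild type arrays, as they did for 15.4% of all tested probes. The log2 fold change was -0.16 ± 0.11 (SE), with an interval from -0.42 to 0.095 and an adjusted p of 0.388, and it was -0.089 without wild type replicate 2, the highest array. It was negative in all 11 alternative analyses that could move the value of that probe. With the groups apart, leaving out 1 array or weighting the arrays could not turn the sign, so no direction is drawn from that count. The dimmer Stag1 probe (100857689 to 100857748) read 0.67, 0.56 and 0.53 in the knockout, against 0.64, 0.68 and 0.61 in wild type. There the groups overlapped and the fitted change was -0.056 ± 0.095. Stag2 (chromosome X, 39630266 to 39630325) read 1.47, 1.37 and 1.44 in the knockout, against 1.33, 1.53 and 1.36 in wild type. Wild type held both the highest and the lowest array of Stag2, and the log2 fold change was 0.020 ± 0.102.

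**Figure D2:**
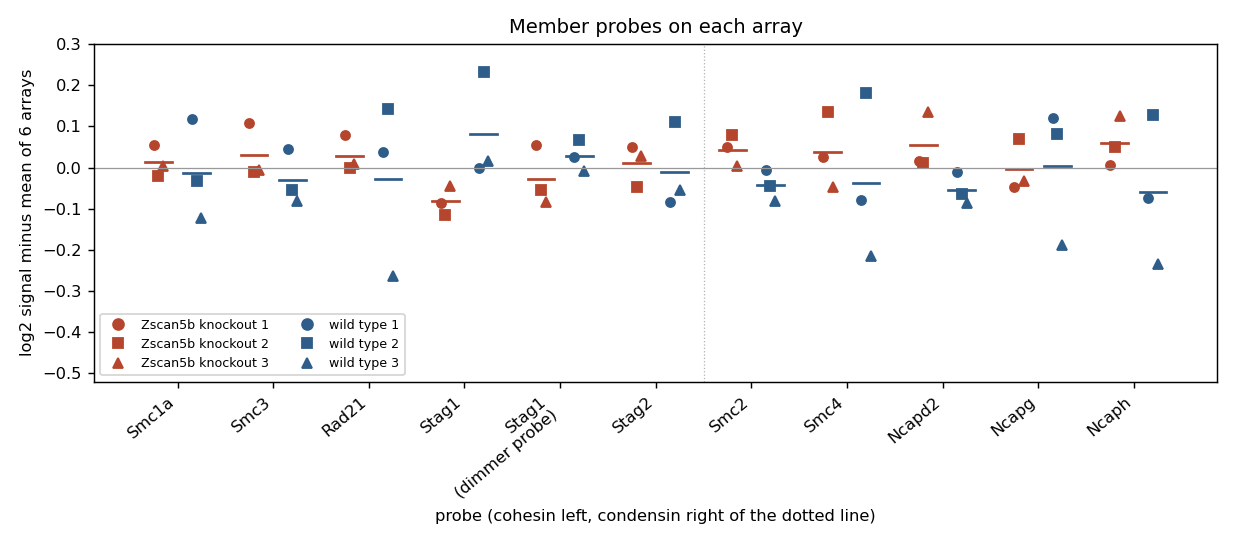
Log2 signal of each cohesin and condensin probe on each array, minus that probe's mean over the 6 arrays, with Zscan5b knockout left of wild type, a symbol for each replicate and a line at each group mean. Wild type replicate 3 is the lowest array in 8 of the 10 genes by their brightest probe, and only the brighter Stag1 probe, Smc2 and Ncapd2 keep the groups apart.

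In condensin, Smc2 and Smc4 form the ATPase pair. Smc2 (chromosome 4, 52501012 to 52501071) read 2.93, 2.96 and 2.88 in the knockout, against 2.88, 2.84 and 2.80 in wild type. All knockout arrays lay above all wild type arrays, though the nearest pair of arrays read 2.88 in both groups. The fitted log2 change was 0.087 ± 0.090 (SE), the smallest standard error of the 11 probes, with an adjusted p of 0.582. Smc4 (chromosome 3, 68838437 to 68838496) read 3.55, 3.66 and 3.48 in the knockout, against 3.44, 3.70 and 3.31 in wild type. The knockout arrays lay within the wild type range, and the fitted change was 0.075 ± 0.134, or -0.013 without wild type replicate 3.

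The other condensin I subunits showed small fitted changes as well. Ncapd2, a repeat protein that docks on the kleisin, read 4.74, 4.74 and 4.87 in the knockout, against 4.72, 4.66 and 4.64 in wild type (chromosome 6, 125118012 to 125118066). The groups did not overlap, the log2 fold change was 0.11 ± 0.095, and the adjusted p was 0.512. Ncaph, the kleisin (chromosome 2, 126929625 to 126929684), read 3.46, 3.50 and 3.57 in the knockout, against 3.37, 3.58 and 3.21 in wild type. Its fitted change was 0.12 ± 0.12, with an interval from -0.18 to 0.42 and overlapping groups. It depended on single wild type arrays, at 0.21 without replicate 2 and 0.034 without replicate 3. Ncapg, the partner of Ncapd2 on the kleisin, was measured by a dim probe (chromosome 5, 46091679 to 46091738) that read -2.90, -2.78 and -2.89 in the knockout, against -2.73, -2.77 and -3.04 in wild type. In linear units that is 121 to 138 in the knockout and 113 to 128 in wild type, still well above background on every array. The knockout arrays lay within the wild type range, and the fitted change of Ncapg was -0.0074 ± 0.120.

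Over the 10 genes by their brightest probe, the groups did not overlap in 3, with the knockout higher in 2 (Smc2 and Ncapd2) and lower in 1 (Stag1). Over all tested probes 29.1% did not overlap, 13.7% with the knockout higher and 15.4% with it lower, so 3 of 10 is near the background. Single wild type arrays stood at the edges of the family's values. Wild type replicate 3 was the lowest array in 8 of the 10 genes (25.5% of all tested probes) and wild type replicate 2 the highest in 5 (22.2% of all). With each gene centred over the 6 arrays, the mean of the 10 was 0.026, 0.015 and 0.017 in knockout replicates 1 to 3, against 0.0062, 0.068 and -0.13 in wild type replicates 1 to 3. The median SD within a group was 0.055 in the knockout and 0.13 in wild type, where all tested probes had medians of 0.13 and 0.22.

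**Figure D3:**
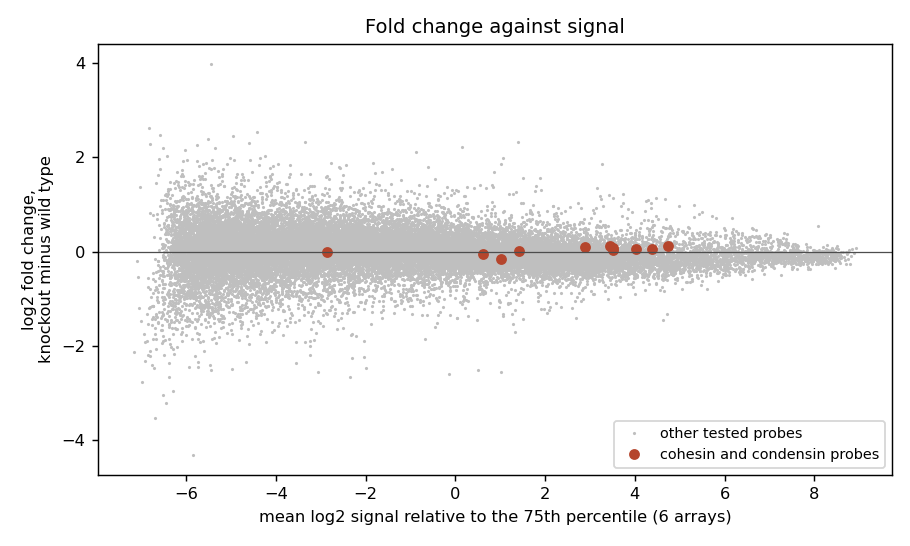
Log2 fold change, Zscan5b knockout minus wild type, against mean log2 signal over the 6 arrays for all 26645 tested probes (grey) and the 11 cohesin and condensin probes (red). The red points lie between -0.16 and 0.12, within the grey band at their signal, and 10 of them are above the 75th percentile of their arrays.

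Differences between partner genes within an array do not depend on that array's scaling by a percentile, and 3 pairs were compared. Stag1 minus Stag2, with the brighter Stag1 probe, was -0.54, -0.47 and -0.47 in the knockout, against -0.32, -0.28 and -0.33 in wild type. The 3 knockout arrays lay below the 3 wild type arrays. The difference of the group means was -0.18 on the log2 scale, with an SD of 0.037 in the knockout and 0.027 in wild type (n = 3 each). An exact two-sided permutation test gave p = 0.1, the smallest that 3 against 3 arrays allow, and 0.3 after Benjamini-Hochberg adjustment over the 3 pairs, so this design could not call it. With the dimmer Stag1 probe the values were -0.80, -0.81 and -0.91 in the knockout, against -0.69, -0.84 and -0.76 in wild type, which overlap, and the difference was -0.076. The 2 Stag1 probes thus differ on whether the groups separate.

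The groups overlapped in both SMC pairs. Smc1a minus Smc3 was -0.57, -0.53 and -0.51 in the knockout, against -0.44, -0.50 and -0.56 in wild type (exact permutation p = 0.4, adjusted p = 0.6). Smc2 minus Smc4 was -0.62, -0.70 and -0.59 in the knockout, against -0.57, -0.87 and -0.51 in wild type (exact permutation p = 1, adjusted p = 1). A negative value only reflects that different probes are set side by side and says nothing of which gene is more abundant.

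**Figure D4:**
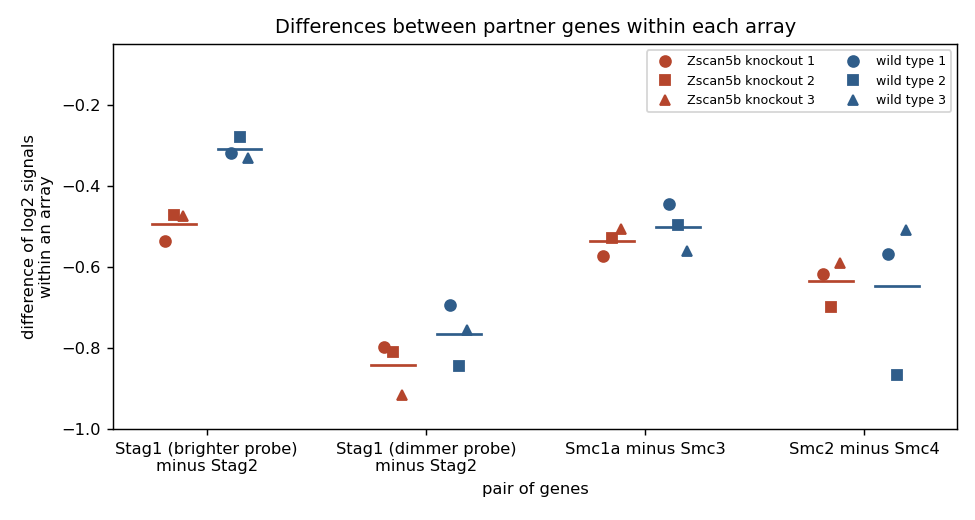
Difference of the log2 signals of 2 partner genes within each array, with Zscan5b knockout left of wild type, a symbol for each replicate and a line at each group mean. Stag1 minus Stag2 separates the groups with the brighter Stag1 probe (-0.54 to -0.47 in the knockout, -0.33 to -0.28 in wild type) and not with the dimmer one.

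Genes that load, regulate or resemble these complexes were read from lists by role, again by the brightest probe of each gene. Over all tested probes, the background for this and the lists that follow, 0.465% were called and 21.9% had an unadjusted p below 0.05. Fitted changes were negative for 13702 of those 26645 probes. Of 6 loading and release factors (Nipbl, Mau2, Wapl, Pds5a, Pds5b and Ctcf), 0 were called by limma and none reached an unadjusted p of 0.05. There were 1 positive and 5 negative fitted changes, with a median of -0.078. Wapl, which releases cohesin from chromatin, read 2.11 ± 0.22 in the knockout and 2.37 ± 0.12 in wild type (SD, n = 3 each), a log2 fold change of -0.25 with an adjusted p of 0.338. Pds5b, a scaffold that works with Wapl, had a log2 fold change of -0.23 (adjusted p 0.358) at its brightest probe, -0.090 at another and 0.50 at its dimmest.

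Of 9 factors that acetylate, protect or cleave cohesin, 0 were called by limma. An unadjusted p below 0.05 was reached by 1 that was higher and 1 that was lower, as it was by 10.6% (higher) and 11.3% (lower) of all tested probes. Espl1, which encodes separase, read 1.96 ± 0.076 in the knockout and 1.62 ± 0.15 in wild type (SD, n = 3 each), with a log2 fold change of 0.35 ± 0.12 (SE) and an adjusted p of 0.178. Hdac8, which removes the acetyl group from Smc3, read -3.16 ± 0.085 in the knockout and -2.84 ± 0.14 in wild type, with a log2 fold change of -0.32 ± 0.11 and an adjusted p of 0.191. Both kept the groups apart at these probes, 2 of the 9 genes, where 29.1% of all tested probes did. A dimmer Hdac8 probe was at -0.22 with a limma adjusted p of 0.406, and its groups overlapped. The other members of the list, among them Cdca5 (sororin) and the acetyltransferases Esco1 and Esco2, had fitted changes from -0.13 to 0.22.

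Meiotic cohesin genes were detected in these cells. Smc1b, Rec8 and Stag3 were well above background on all 6 arrays, while Rad21l was well above background on 1 wild type array and 0 knockout arrays and was not tested. Stag3, the meiotic counterpart of Stag1 and Stag2, read 1.22, 1.45 and 1.68 in the knockout, against 0.71, 1.39 and 0.23 in wild type. Its fitted change was 0.67 ± 0.30 on the log2 scale (SE, adjusted p 0.252). Without wild type replicate 2 the change was 0.98 and passed the threshold with an adjusted p of 0.0483, without wild type replicate 3 it was 0.40 with an adjusted p of 0.468, and over the leave-one-out fits adjusted p ran up to 0.54. Rec8, the meiotic kleisin, read 2.31, 2.48 and 2.62 in the knockout, against 2.08, 2.46 and 1.33 in wild type, with a fitted change of 0.51 ± 0.29 (adjusted p 0.331) that was 0.20 without wild type replicate 3 and 0.77 without wild type replicate 2. Smc1b read 0.76, 1.22 and 1.06 in the knockout, against 0.90, 1.21 and -0.26 in wild type. Wild type replicate 3 was the lowest array for all 3 of these genes, as it was for most of the 10 subunits. These were whole cultures, in which fewer cells that express a gene and less RNA per cell cannot be told apart.

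Condensin II, the form that stays in the nucleus through interphase, differs from condensin I in Ncapd3, Ncapg2 and Ncaph2. Of these 3 genes 0 were called, where 0.465% of all tested probes were. Ncapg2 had a log2 fold change of 0.13 ± 0.13 (adjusted p 0.567) and Ncapd3 of 0.070 ± 0.096 (adjusted p 0.679). The 2 probes of Ncaph2, a gene chosen after its values were seen, disagreed. The brighter was at -0.10 ± 0.20, while the other read 3.07 ± 0.087 in the knockout and 2.66 ± 0.033 in wild type (SD, n = 3 each), a log2 fold change of 0.42 with an adjusted p of 0.113.

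Of 7 genes of the SMC5/6 complex and Smchd1, 0 were called by limma, where 0.465% of all tested probes were. None reached an unadjusted p of 0.05, where 21.9% of all did. Fitted changes ran from -0.22 (Nsmce2, a SUMO ligase of the complex, adjusted p 0.309) to 0.099 (Smc5, adjusted p 0.57). Of 4 genes listed as chromosome scaffold partners (Top2a, Top2b, Kif4 and Mki67), all had positive fitted changes with a median of 0.29, and 0 were called. An unadjusted p below 0.05 was reached by 2, both higher, as by 10.6% of all tested probes. Top2a, the topoisomerase that untangles mitotic chromosomes, read 3.50 ± 0.060 in the knockout and 3.17 ± 0.10 in wild type (SD, n = 3 each), a log2 fold change of 0.32 ± 0.10 (SE) with an adjusted p of 0.168. Kif4, a chromosome-bound kinesin, was at 0.32 ± 0.095 with an adjusted p of 0.156. The groups did not overlap, with the knockout higher, for these 2 genes and Mki67, where 13.7% of all tested probes did so. Top2b was at 0.17 with a limma adjusted p of 0.49, and its groups overlapped.

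**Figure D5:**
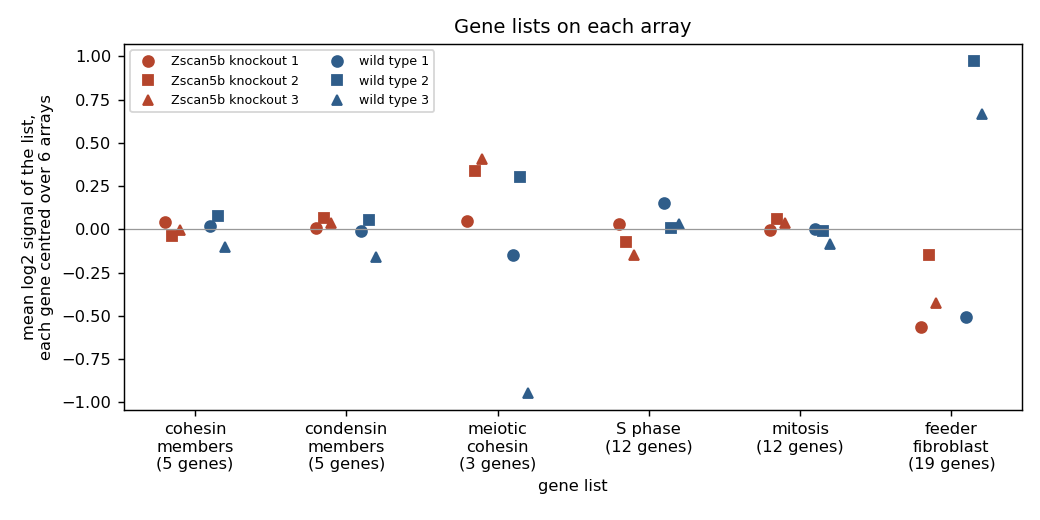
Mean log2 signal of 6 gene lists on each array, each gene centred over the 6 arrays, with Zscan5b knockout left of wild type and a symbol for each replicate. The cohesin and condensin means stay between -0.16 and 0.079, while the feeder fibroblast mean is 0.98 and 0.67 in wild type replicates 2 and 3 and -0.51 in wild type replicate 1.

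Markers of feeder fibroblasts differed among the arrays far more than the subunits did. Of 19 tested markers of 20, 1 had a positive and 18 a negative fitted change with a median of -0.74, and 0 were called by limma, with 0 higher and 4 lower at an unadjusted p below 0.05, where 10.6% of all tested probes were higher and 11.3% lower. Their summed processed signal was 177675 to 220052 in the knockout and 182217 to 305837 in wild type. All 19, with the collagens Col1a1 and Col1a2 among them, were well above background on all 6 arrays, and Col5a2 was not tested. Wild type replicate 1 had a feeder mean of -0.51, within the knockout range of -0.56 to -0.15. Its mean over the 10 subunits was 0.0062. That mean was 0.068 and -0.13 in wild type replicates 2 and 3, and 0.015 to 0.026 in the knockout. The part of feeder RNA in the small differences between arrays was not tested.

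Lists of cycling genes held no call by the brightest probe of each gene. The 12 mitotic genes, with cyclins, Aurka and Plk1, had a median fitted change of 0.035, 0 called and 1 higher at an unadjusted p below 0.05, against 10.6% of all tested probes. The probes of Cdk1, a mitotic kinase named after its values were seen, disagreed. A dimmer one was called in limma, at 0.88 ± 0.10 (SE, adjusted p 0.0377), while the brightest was at 0.12 (adjusted p 0.434) and the dimmest at -0.31. The 12 S phase genes, with the Mcm helicase subunits, had a median of -0.11, 0 called and 2 lower at an unadjusted p below 0.05, against 11.3% of all tested probes.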

How the data were processed

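Gene expression was measured on 6 one-colour Agilent arrays, and each sample was grouped by its title. The authors deposited linear intensity per spot. Feature Extraction 10.7.3.1 (per the file headers; the submitters' processing notes give 10.3.1.1) had subtracted and detrended background and set surrogate values for signals not above it. The authors' series table holds log2 values centred per probe (column medians from -0.07 to 0.03) of unstated scaling, and it served as an alternative. Its columns followed the scanner values of the same arrays, centred likewise, with r of at least 0.999 across probes.

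Control and outlier spots were left out, spots of a probe were averaged as log2, and the 75th percentile of each array was taken off. Probes well above background on at least 3 of 6 arrays, with at least 2 values per group, were tested with lmFit and eBayes (limma 3.58.1, R 4.3.3, two-sided, Benjamini-Hochberg over 26645 probes, threshold 0.05), without a block. The script was tested on simulated data. The number of arrays limits the precision. Positions are the files' mm9 positions; the part of a transcript that a probe matches was not analysed here. RefSeq named 26761 gene probes by accession, 3814 by symbol and 639 by synonym; 8215 kept the file's entry. A gene's value is that of its tested probe with the highest mean. Named genes are all subunits, Zscan5b and, per role list, all called genes or the 2 with the smallest p, with exceptions as stated. The members and lists were chosen with earlier results of these data known. Alternatives covered background, scaling, filter, variance model, block, authors' values, probe choice and leaving out each array.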

Additional observations from a re-analysis of the deposited data

How the results depend on the processing

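No subunit gene passed the limma threshold under any of 15 alternative settings, nor did Stag1 as the mean over its probes. Counted as 1 gene under 1 setting, these gave 151 results, which share the same arrays and are not independent. In 40 of the 151 results only the variance or the probes tested changed, so the fold change was fixed. The direction was kept in 98 of the other 111. Smc1a turned to -0.029 and Stag2 to -0.035 under a shift to the median, and with array weights Smc1a was -0.0035 and Ncapg 0.054. Leaving out 1 array gave ranges of -0.060 to 0.14 for Rad21, -0.030 to 0.091 for Smc1a, -0.017 to 0.079 for Stag2, -0.013 to 0.18 for Smc4, -0.10 to 0.050 for Ncapg, 0.034 to 0.21 for Ncaph, 0.021 to 0.098 for Smc3, 0.067 to 0.13 for Ncapd2, 0.068 to 0.11 for Smc2 and -0.21 to -0.089 for Stag1. The median of the 10 genes was 0.18 after quantile normalization and -0.0080 to 0.090 over the leave-one-out fits. Under quantile normalization 2 of the 11 probes had an unadjusted limma p below 0.05, as did 5510 of all 26645 tested probes. Smc1a minus Smc3 turned to 0.018 under normexp.

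Over all probes 124 were called, against 231 under a shift to the median and 1593 with array weights. The limma count was 0 under normexp (5784 probes at an unadjusted p below 0.05), without a filter (6514), with detection on all 6 arrays (5451), with a trended and robust prior (6198) and with the replicate block (5152), and 0 to 2557 over the leave-one-out fits. It was 640 without wild type replicate 1, 2557 without wild type replicate 2 and 0 without wild type replicate 3 or any knockout array (3229 to 4880 at an unadjusted p below 0.05). The causes were not tested. Correlations of the arrays' deviations did not settle whether the replicate numbers pair them. Same-numbered arrays had correlations of 0.16, 0.23 (the highest of all) and -0.14, and knockout replicate 1 correlated best with wild type replicate 3 (0.21). The replicate block changed no call of a subunit (median 0.059, smallest adjusted p 0.464). Changes much below the intervals given are beyond 3 arrays a group.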
